A study of Mus musculus with 6 samples.

Results

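The interferon regulatory factor (IRF) and signal transducer and activator of transcription (STAT) genes described here are Irf1, Irf2, Irf3, Irf5, Irf7, Irf8, Irf9, Stat2 and Stat3. They were taken by symbol from the deposited gene count table, and all 9 were found among its 54532 genes and among the 16471 genes tested. Epidermis was separated with Dispase II from newborn mouse skin and its RNA sequenced, in 3 libraries that the labels call Paxbp1 knockout and 3 that they call wild type. Paxbp1 encodes a protein that binds the transcription factors Pax3 and Pax7, and the series asks how it regulates epidermal homeostasis. The labels give neither the allele nor any Cre driver of the knockout, nor the strain, the sex or whether each library came from 1 animal, and a p-value here measures only the spread among the libraries, which may be technical.

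IRF and STAT proteins carry signals of infection and of cytokines to DNA. Sensors of viral or microbial nucleic acid lead to phosphorylation of IRF3 and IRF7, which switch on interferon genes. Interferons bind receptors that carry Janus kinases, and these phosphorylate STAT proteins. STAT2 and IRF9 are parts of the complex ISGF3, which binds the interferon-stimulated response element (ISRE) of interferon-stimulated genes. STAT dimers bind another element, the gamma-activated site (GAS). IRF1 activates and IRF2 competes at ISRE-like sites, IRF5 and IRF8 act in myeloid and lymphoid cells, and STAT3 carries signals of interleukin-6 family cytokines and takes part in keratinocyte wound responses.

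Paxbp1 itself was at 134, 73.6 and 69.7 CPM (counts scaled to a common library size, with TMM factors) in the libraries labelled knockout, replicates 1 to 3, against 109.5, 70.9 and 77.8 CPM in the wild type. It was not called (log2 fold change 0.10 ± 0.29, edgeR adjusted p = 0.783). The labels do not say which part of the gene was deleted, so its count could not be used to check them, and each direction below is that of libraries labelled knockout against libraries labelled wild type. Totals were 16643839 to 17816327 counts in the knockout and 16315317 to 17802056 counts in the wild type. The epidermal label was checked with 15 keratinocyte markers, led by the suprabasal keratin Krt1. Their summed level was 5174 to 13774 CPM in the knockout and 86523 to 142646 CPM in the wild type, and 14 of the 15 were called lower. Other cell types moved too. Of 14 macrophage markers, led by the mannose receptor Mrc1, 14 were called higher, with a summed level of 10695 to 19828 CPM in the knockout and 182 to 205 CPM in the wild type. Of 8 neutrophil markers tested (most abundant S100a9) 8 were higher, of 10 dendritic and Langerhans cell markers (Bst2) 7 were higher and 1 lower, and of 10 T and NK cell markers (Thy1) 2 were higher and 4 lower. Bst2 is also in the list of type I interferon targets and Thy1 also in that of fibroblasts, and 7 genes in all stand in more than one list. For fibroblasts (Col1a1) 9 of 11 were higher and 2 lower, for endothelium (Pecam1) 5 of 6 were higher, for melanocytes (Dct) 2 of 7 were higher and 3 lower. For mast cells (Kit) 3 of 4 were higher and 1 lower, for B cells (Ighm) 1 of 3 was higher and for red blood cells (Hba-a1) 6 of 6 were higher. In bulk tissue, a change in the number of cells of a type and a change in RNA per cell cannot be told apart. The part of these cell type markers in the results on IRF and STAT genes was not tested.

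Irf1, Irf2, Irf5, Irf7, Irf8, Irf9, Stat2 and Stat3 were higher in the libraries labelled knockout, and Irf3 was not called. A gene was called at an adjusted p under 0.05 in edgeR's quasi-likelihood test, with Benjamini-Hochberg adjustment over all genes tested. By this rule 8 of the 9 genes were higher, against a background over the whole table of 28.7% higher, 25.1% lower and 53.8% called in all. With the replicate number as a block the background was 30.9% higher and 29.1% lower, and the same 8 genes were higher. In the same 8 genes each knockout library lay above every wild type library, as it did for 31.9% of all genes, while groups failed to overlap in either direction for 62.3%. The median log2 fold change (knockout over wild type) was 2.17 over the 9 genes, -0.03 over all genes tested and -0.23 over the 1031 tested genes to which the deposited table gives a transcription factor family. Of those 1031 factors 22.8% were higher and 32.8% lower. All 9 genes had at least 44 counts in every library, so none of them entered the test through one group alone.

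**Figure D1:**
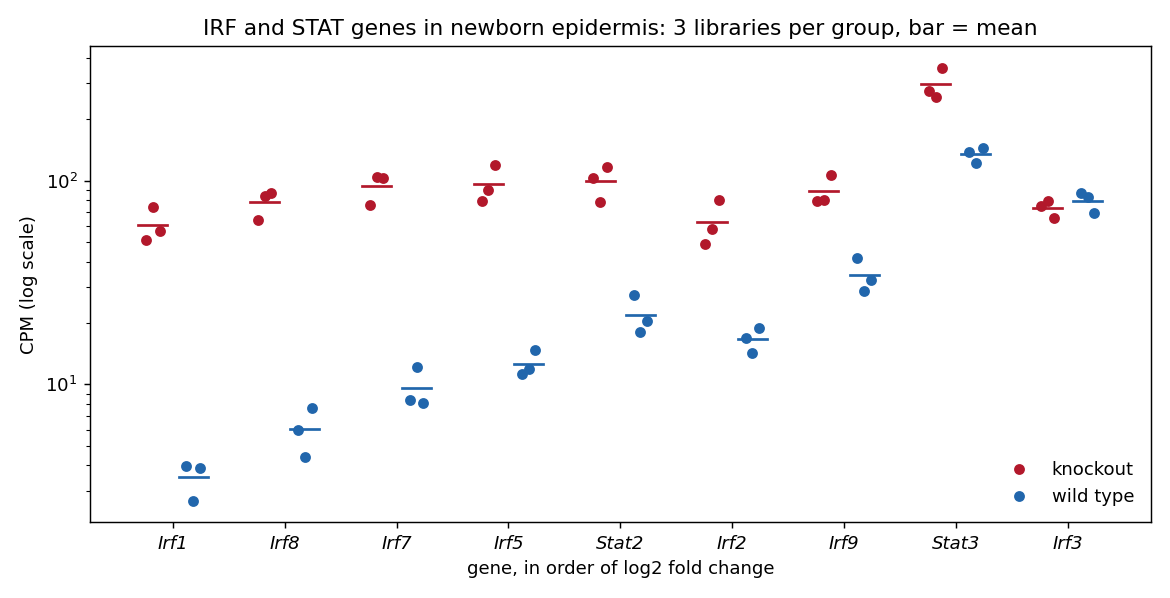
CPM (log axis) of the 9 IRF and STAT genes in each of the 3 knockout (red, left) and 3 wild type libraries (blue, right), with the group mean as a bar, in order of log2 fold change. The groups are separate for every gene except Irf3, whose knockout libraries sit at 65.3 to 79.7 CPM and wild type libraries at 69.2 to 86.5 CPM.

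**Figure D2:**
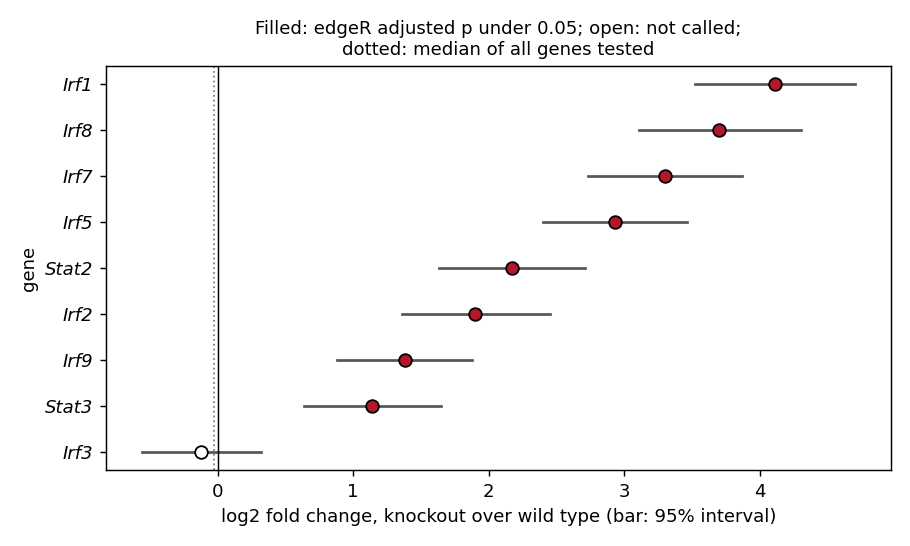
Log2 fold change (knockout over wild type) of each gene with its 95% interval from the edgeR fit. Filled points were called and the open point, Irf3, was not, and the dotted line is the median of all genes tested, -0.03.

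Irf1 and Irf2 are the paired activator and competitor at ISRE-like sites. Irf1 (ENSMUSG00000018899, chromosome 11, 53770014 to 53778374, plus strand, mm10) was at 51.4, 74.6 and 56.7 CPM in knockout replicates 1 to 3, against 3.98, 2.69 and 3.87 CPM in wild type replicates 1 to 3. The lowest knockout library stood 12.9-fold above the highest wild type library. Irf1 had the largest change of the 9 genes (log2 fold change 4.11 ± 0.27 SE, edgeR adjusted p = 5.7e-07), a fold of 17.3 with a 95% interval of 11.4 to 26.0. Irf2 (ENSMUSG00000031627, chromosome 8, 46739732 to 46847458, plus strand) was at 48.7, 58.0 and 80.4 CPM in the knockout, against 16.9, 14.2 and 18.8 CPM in the wild type. Its groups did not overlap either, and its rise was smaller (log2 fold change 1.90 ± 0.25, edgeR adjusted p = 7.11e-05). The ratio of Irf1 to Irf2 per length (FPKM over FPKM within a library) was 1.96, 2.39 and 1.31 in the knockout, against 0.439, 0.351 and 0.383 in the wild type. By this measure, which depends on the deposited gene lengths, Irf1 was above Irf2 in each knockout library and below it in each wild type library.

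The stretches before the starts of Irf1, Irf2, Irf8 and Stat2 are shown because, of the 9 genes, these 4 have a match to the textbook binding element of IRF or STAT proteins in the 250 bases before a RefSeq transcript start (build GRCm38.p6, plus strand for each). All 9 genes had an entry, 12 starts in all. The ISRE was searched as GAAA and GAAA with any 2 bases between them, or TTTC and TTTC with any 2 bases between them for the other strand. The GAS was searched as TTCNNNGAA, which is its own reverse complement. No match to one overlapped a match to the other in these genes. Capitals mark the matches. Irf1 has a GAS match at -90 to -82 from the start (chr11:53769764-53770013). Irf2 has an ISRE match at -241 to -232 and a GAS match at -224 to -216 (chr8:46739495-46739744). Irf8 has GAS matches at -171 to -163 and at -153 to -145 (chr8:120736108-120736357). Stat2 has an ISRE match at -222 to -213 (chr10:128270248-128270497).
Irf1: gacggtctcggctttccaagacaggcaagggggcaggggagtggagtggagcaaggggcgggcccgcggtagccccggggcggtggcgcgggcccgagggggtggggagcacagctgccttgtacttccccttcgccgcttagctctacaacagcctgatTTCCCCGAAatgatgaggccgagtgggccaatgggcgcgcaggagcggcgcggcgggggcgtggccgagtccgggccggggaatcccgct
Irf2: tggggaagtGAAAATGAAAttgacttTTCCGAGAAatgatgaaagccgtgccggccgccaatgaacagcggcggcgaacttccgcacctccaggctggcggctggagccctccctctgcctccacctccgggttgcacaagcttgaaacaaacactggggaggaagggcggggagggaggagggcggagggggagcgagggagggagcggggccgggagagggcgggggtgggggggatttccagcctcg
Irf8: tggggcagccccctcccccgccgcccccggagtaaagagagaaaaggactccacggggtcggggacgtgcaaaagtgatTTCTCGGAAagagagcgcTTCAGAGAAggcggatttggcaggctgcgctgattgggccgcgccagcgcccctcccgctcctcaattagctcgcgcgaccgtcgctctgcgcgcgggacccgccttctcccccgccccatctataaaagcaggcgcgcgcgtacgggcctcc
Stat2: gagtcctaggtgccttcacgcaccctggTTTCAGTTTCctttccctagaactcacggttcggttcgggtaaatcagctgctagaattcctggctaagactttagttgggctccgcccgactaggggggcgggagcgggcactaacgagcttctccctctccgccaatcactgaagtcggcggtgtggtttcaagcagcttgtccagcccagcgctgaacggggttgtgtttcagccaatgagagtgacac
An ISRE match was thus present for 2 of the 9 genes and a GAS match for 3. Over all 27025 genes with a promoter entry, 3.46% had the ISRE and 8.13% the GAS in the same window. A match of letters is a description of the sequence and no evidence of binding here.

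Irf3 and Irf7 are the factors that nucleic acid sensors activate. Irf3 is made constitutively in most cells and acts after phosphorylation, whereas Irf7 is itself interferon-inducible. Irf3 (ENSMUSG00000003184, chromosome 7, 44997648 to 45002848, plus strand) was at 75.1, 79.7 and 65.3 CPM in the knockout, against 86.5, 83.0 and 69.2 CPM in the wild type, and the groups overlapped. Its log2 fold change was -0.12 ± 0.20 (edgeR adjusted p = 0.643), with a fold of 0.922 and a 95% interval of 0.681 to 1.25. Irf7 (ENSMUSG00000025498, chromosome 7, 141262706 to 141266481, minus strand) was at 75.5, 105 and 103 CPM in the knockout, against 8.40, 12.2 and 8.12 CPM in the wild type. Every knockout library was at least 6.18-fold above every wild type library for Irf7 (log2 fold change 3.30 ± 0.26, edgeR adjusted p = 1.89e-06). The Irf7 to Irf3 ratio per length was 0.917, 1.2 and 1.44 in the knockout, against 0.0885, 0.134 and 0.107 in the wild type. By this measure Irf7 was above Irf3 in knockout replicates 2 and 3 and below it in every wild type library. The deposited gene lengths are 3776 bases for Irf7, the whole of its interval, and 3442 bases for Irf3. Which gene stands above the other depends on these lengths, whereas the difference between groups does not.

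The Irf3 count has an overlap to consider. Bcl2l12 lies on the opposite strand and shares 1065 bases with Irf3, and the strand setting of the counting is not given in the sources used here. Bcl2l12 had 143, 130 and 144 counts in the knockout, against 337, 230 and 280 counts in the wild type (log2 fold change -0.89 ± 0.23, edgeR adjusted p = 0.00749), while Irf3 had 1054 to 1326 counts in the knockout and 1304 to 1586 in the wild type. Tnpo3 shares 1045 bases with Irf5 on the opposite strand and was not called (log2 fold change -0.27 ± 0.20, edgeR adjusted p = 0.286). Rnf31 runs into Irf9 on the same strand over 123 bases and was higher (0.74 ± 0.22, edgeR adjusted p = 0.0165). Without wild type replicate 2 the Rnf31 log2 fold change was 0.587 and lost its call (edgeR adjusted p = 0.0877). Phrf1 shares 45 bases with Irf7 and was not called (0.10 ± 0.29, edgeR adjusted p = 0.794). Within Irf1 and Irf2, the opposite-strand genes Gm17334, Gm45479, Gm45481 and Gm31172 had at most 34 counts in any library and were not tested. Gm20388, whose interval spans Irf8, had no count.

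Irf5 and Irf8 are best known from myeloid cells, where IRF5 acts downstream of Toll-like receptors and IRF8 directs the development of monocytes and dendritic cells. Irf5 (ENSMUSG00000029771, chromosome 6, 29526625 to 29541871, plus strand) was at 79.7, 90.0 and 120 CPM in the knockout, against 11.2, 11.9 and 14.8 CPM in the wild type. That is a log2 fold change of 2.93 ± 0.24 (edgeR adjusted p = 2.74e-06). Irf8 (ENSMUSG00000041515, chromosome 8, 120736358 to 120756694, plus strand) was at 64.2, 84.2 and 87.2 CPM in the knockout, against 6.002, 4.40 and 7.64 CPM in the wild type. Its rise was the next largest after Irf1 (log2 fold change 3.70 ± 0.27, edgeR adjusted p = 1.19e-06), and the lowest knockout library was 8.41-fold above the highest wild type library. The Irf8 to Irf5 ratio per length was 0.332, 0.385 and 0.299 in the knockout, against 0.220, 0.152 and 0.213 in the wild type. The 14 macrophage markers rose by a median of 5.73 on the log2 scale in these libraries, and Mrc1 stood at 6063 ± 1663 CPM in the knockout and 6.44 ± 1.19 CPM in the wild type (SD, n = 3 each). Of the 10 dendritic and Langerhans cell markers tested 7 were higher, among them the integrin gene Itgax at 20.98 ± 2.47 CPM in the knockout and 4.001 ± 1.38 CPM in the wild type, and Cd209a with 197 counts over the knockout libraries and 1 over the wild type. Of the same markers Epcam was lower (-1.86 ± 0.28, edgeR adjusted p = 0.000232). Xcr1 (-0.28 ± 0.77, edgeR adjusted p = 0.781) and Siglech (0.67 ± 0.76, edgeR adjusted p = 0.487) were not called. Cd207 and Clec9a were not tested, with 8 and 13 counts over the knockout libraries and none in the wild type. The part of these cells in the rise of Irf5 and Irf8 was not tested.

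Stat2 and Irf9 encode subunits of ISGF3. Stat2 (ENSMUSG00000040033, chromosome 10, 128270559 to 128292849, plus strand) was at 103, 78.9 and 116 CPM in the knockout, against 27.5, 18.03 and 20.5 CPM in the wild type. Irf9 (ENSMUSG00000002325, chromosome 14, 55603571 to 55610030, plus strand) was at 79.3, 80.8 and 107 CPM in the knockout, against 41.5, 28.7 and 32.5 CPM in the wild type. Both were higher in every knockout library, Stat2 by 2.17 ± 0.25 (edgeR adjusted p = 2.75e-05) and Irf9 by 1.38 ± 0.23 (edgeR adjusted p = 0.00041) on the log2 scale. Their ratio per length, Stat2 over Irf9, was 1.18, 0.888 and 0.989 in the knockout, against 0.602, 0.570 and 0.572 in the wild type.

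Stat3 (ENSMUSG00000004040, chromosome 11, 100885098 to 100939540, minus strand) was at 277, 258 and 359 CPM in the knockout, against 138, 122 and 145 CPM in the wild type. The groups did not overlap, and of the 8 genes called this was the smallest rise (log2 fold change 1.14 ± 0.23, edgeR adjusted p = 0.00149), a fold of 2.21 with a 95% interval of 1.56 to 3.13. The lowest knockout library was 1.78-fold above the highest wild type library. Stat5a, on the opposite strand, shares 72 bases with Stat3 and was itself higher (1.25 ± 0.20, edgeR adjusted p = 0.000358).

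FPKM, the deposited values per gene length and library size, allow the genes to be put in order within a group. The order and the shares below depend on the deposited gene lengths, which were not checked against the transcripts made here. The knockout order, by the mean FPKM over 3 libraries, was Irf5 (33.1 ± 7.48, SD), Stat3 (31.1 ± 5.90), Irf7 (24.9 ± 4.41), Irf3 (21.2 ± 1.94), Stat2 (16.7 ± 3.30), Irf9 (16.4 ± 3.01), Irf1 (15.2 ± 2.98), Irf8 (11.1 ± 1.81) and Irf2 (8.40 ± 2.27). Ranges over libraries overlapped between every pair of neighbours in that order except Irf1 and Irf8. In the wild type the order was Irf3 (22.5 ± 2.47), Stat3 (13.8 ± 1.13), Irf9 (6.20 ± 1.09), Irf5 (4.25 ± 0.665), Stat2 (3.62 ± 0.748), Irf7 (2.48 ± 0.623), Irf2 (2.20 ± 0.297), Irf1 (0.861 ± 0.167) and Irf8 (0.831 ± 0.223). There Irf3, Stat3 and Irf9 were each separate from the next gene, as was Irf2 from Irf1, and the other neighbours overlapped. Irf3 made up 9.38% to 13.7% of the summed FPKM of the 9 genes in the knockout libraries and 35.5% to 43.1% in the wild type libraries. The sum itself was 157 to 203 FPKM in the knockout and 55.2 to 59.6 FPKM in the wild type.

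**Figure D3:**
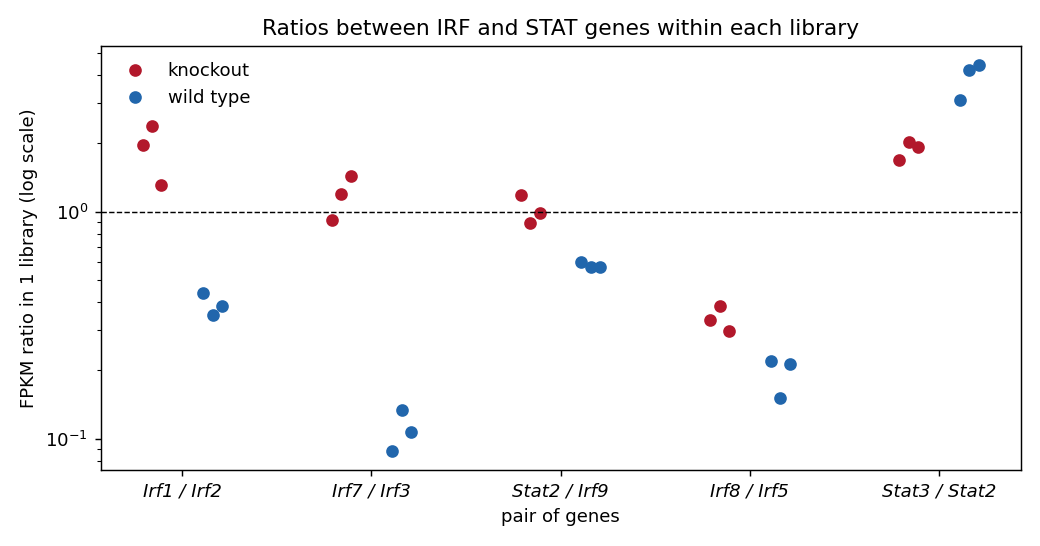
Ratio of FPKM between 5 pairs of IRF and STAT genes within each library (log axis), knockout in red on the left and wild type in blue on the right. The dashed line is at equal FPKM, and the place of a pair relative to it depends on the deposited gene lengths. The 3 knockout points lie above the 3 wild type points for each pair except Stat3 over Stat2, where they lie below.

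For each of the 5 ratios in that plot the knockout and wild type libraries did not overlap. On the log2 scale the knockout differed from the wild type by 2.24 for Irf1 over Irf2, 3.43 for Irf7 over Irf3, 0.80 for Stat2 over Irf9, 0.81 for Irf8 over Irf5 and -1.05 for Stat3 over Stat2. The last ratio was 1.68 to 2.03 in the knockout and 3.11 to 4.41 in the wild type. An exact two-sided permutation test of 3 against 3 libraries, taken as unpaired, gave p = 0.1 for each. After Benjamini-Hochberg adjustment over the 5 ratios the p of this test was 0.1 as well. That is the smallest p that 3 against 3 unpaired libraries allow, and no paired test of the ratios was run.

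Knockout replicate 3 had the highest CPM of its group for 6 of the 9 genes and replicate 1 the lowest for 6, and Irf1, Irf3 and Irf7 peaked in knockout replicate 2. The highest knockout library was 1.22-fold (Irf3) to 1.65-fold (Irf2) above the lowest. In the wild type the same spread was 1.19-fold (Stat3) to 1.74-fold (Irf8).

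Of the other genes that the deposited table assigns to the IRF or STAT family, 7 were listed and 6 tested. Of these 4 were higher and 1 lower, with a median log2 fold change of 0.97, where the 9 genes described here had 2.17.

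Genes upstream and downstream of these factors were followed in lists, and the background for each count is 28.7% higher and 25.1% lower. Ligand transcripts were scarce. All 21 genes of type I, II and III interferons in the table together had 22, 8 and 3 counts in the knockout libraries, against 4, 1 and 3 in the wild type libraries. Ifnb1, which encodes interferon beta, had 1 count over the knockout libraries and none in the wild type, and Ifng, which encodes interferon gamma, had 5 and none. Ligands that act through STAT3 were more abundant. Of 19 interferon and STAT3 cytokine ligand genes 8 were tested, of which 6 were higher and 1 lower, and 11 did not pass the filter on low counts. Osm, which encodes oncostatin M, had 1018, 1145 and 1073 counts in the knockout, against 2, 2 and 1 in the wild type (log2 fold change 9.36 ± 0.35, edgeR adjusted p = 1.65e-07). Il10, the gene of an anti-inflammatory cytokine, had 86, 96 and 77 counts in the knockout and none in the wild type, which is at least 94.1-fold higher when the wild type group is set to a floor of 3 counts. Il6, chosen after its values were seen, had 96, 170 and 97 counts and none, at least 132-fold higher. Ctf1, which encodes cardiotrophin 1, fell by 3.68 on the log2 scale (edgeR adjusted p = 0.000115). Macrophages and neutrophils also make Osm, Il10 and Il6, and 14 of 14 macrophage and 8 of 8 tested neutrophil markers rose in these libraries. Fibroblast markers (9 of 11 higher, 2 lower) and endothelial markers (5 of 6 higher) rose as well. The part of any of these cells in the rise was not tested. Without knockout replicate 1, 2 ligand genes were lower.

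Receptor chains were higher for 9 of 14 genes and lower for 3. The interleukin-10 receptor chain Il10ra was at 120 ± 13.2 CPM in the knockout and 5.72 ± 0.896 CPM in the wild type (SD, n = 3 each). Il10rb, a chain shared by receptors for interleukin-10 and interferon lambda, was at 151 ± 20.03 CPM in the knockout and 12.2 ± 0.897 CPM in the wild type. The interferon receptor chains Ifnar1, Ifnar2, Ifngr1 and Ifngr2 were all among the higher genes, with log2 fold changes of 2.58, 2.61, 2.57 and 2.29. Ifnlr1, the interferon lambda receptor chain, stood at 10.3 ± 2.87 CPM in the knockout and 16.2 ± 3.12 CPM in the wild type and was not called (-0.65 ± 0.28, edgeR adjusted p = 0.0691). It was called lower with the replicate block (-0.67, edgeR adjusted p = 0.0378) and without knockout replicate 3 (-0.84, edgeR adjusted p = 0.0395). The shared gp130 chain Il6st was not called (0.23 ± 0.24, edgeR adjusted p = 0.433), and Il22ra1, the interleukin-22 receptor chain of epithelia, fell by 2.93. Without wild type replicate 1 or wild type replicate 3, 1 receptor gene was lower. Of the 4 Janus kinases 3 were higher. Jak3, which is mainly made in blood cells, was at 128 ± 23.5 CPM in the knockout and 5.26 ± 1.08 CPM in the wild type. Jak2 stood at 589 ± 93.0 CPM in the knockout and 36.2 ± 5.38 CPM in the wild type. Jak1 was not called (0.56 ± 0.23, edgeR adjusted p = 0.0648), but it was called higher with the replicate block (0.55, edgeR adjusted p = 0.0222) and without knockout replicate 1 (0.67, edgeR adjusted p = 0.0292).

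Nucleic acid sensing genes and the adaptors and kinases that activate IRF proteins were higher for 20 of 25 genes and lower for 1, with a median log2 fold change of 2.22. The nucleic acid sensor Zbp1 (5.70 ± 0.30, edgeR adjusted p = 2.03e-07) and the endosomal RNA receptor Tlr7 (6.34 ± 0.36, edgeR adjusted p = 2.87e-07) had the smallest adjusted p. The kinase that phosphorylates IRF3, Tbk1, rose by 1.48 ± 0.20 on the log2 scale, and the related kinase gene Ikbke was not called (-0.15 ± 0.25, edgeR adjusted p = 0.644). Mavs, the mitochondrial adaptor of RNA sensors, was not called (-0.23 ± 0.20, edgeR adjusted p = 0.376), and the ubiquitin ligase gene Traf6 fell by 0.82. Macrophages express Tlr7, and 14 of 14 macrophage markers were higher in these libraries. The part of macrophages, or of the other cell types whose markers rose, in the rise of Tlr7 and the other sensing genes was not tested.

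Feedback inhibitors were higher for 10 of 19 genes and lower for 3. The number higher was 7 with upper-quartile factors, with library-size scaling and without wild type replicate 1. Socs3, the inhibitor that STAT3 induces, was at 387 ± 33.1 CPM in the knockout and 28.1 ± 4.72 CPM in the wild type (log2 fold change 3.78 ± 0.25, edgeR adjusted p = 5.94e-07). Usp18, which blocks the type I interferon receptor, was at 24.2 ± 7.68 CPM in the knockout and 0.644 ± 0.192 CPM in the wild type. Pdlim2, which encodes a nuclear ubiquitin ligase for STAT proteins, fell by 2.70. None of Pias1, Pias2, Pias3 and Pias4, the PIAS inhibitors of STAT, was called by edgeR, with log2 fold changes between -0.01 (Pias3) and 0.37 (Pias1).

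Partners of IRF and STAT proteins were higher for 11 of 15 genes and lower for 2. Spi1, which encodes the myeloid factor PU.1 that binds DNA together with IRF8, was at 407 ± 104 CPM in the knockout and 8.74 ± 2.27 CPM in the wild type. Ikzf1, a lymphoid and myeloid zinc finger factor, rose by 4.44 ± 0.29 (edgeR adjusted p = 5.42e-07). Cebpa, which acts in both keratinocytes and myeloid cells, fell by 1.26, with 176 ± 22.1 CPM in the knockout and 421 ± 74.4 CPM in the wild type.

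**Figure D4:**
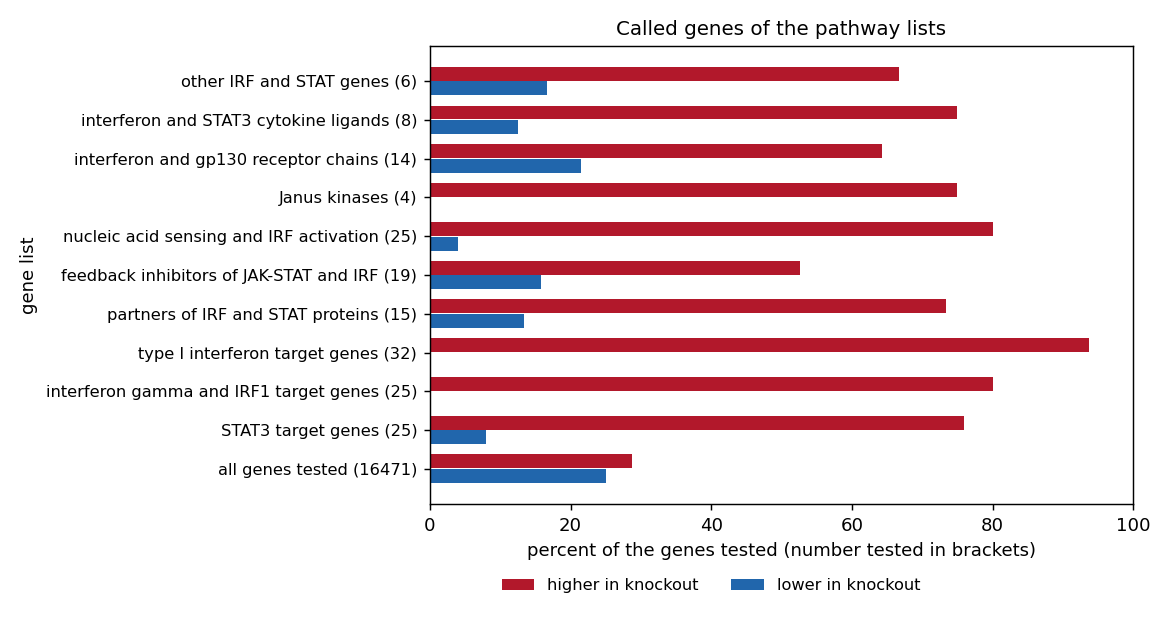
Percent of tested genes called higher (red, upper bar) and lower (blue, lower bar) in the knockout for each pathway list, with the number tested in brackets and all 16471 genes tested in the last row. The share of higher genes is 93.8% for type I interferon targets, 80% for sensing and for interferon gamma targets and 28.7% over all genes.

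Most of the tested target genes were higher in each of the 3 target lists. Of 32 type I interferon target genes 30 were higher and 2 were not called, with a median log2 fold change of 4.12. The antiviral gene Ifit1 had 781, 1112 and 1017 counts in the knockout, against 12, 6 and 5 in the wild type (log2 fold change 7.10 ± 0.38, edgeR adjusted p = 2.05e-07). Trim30a, an interferon-induced ubiquitin ligase gene, was at 165 ± 28.6 CPM in the knockout and 3.72 ± 0.546 CPM in the wild type. Of 28 interferon gamma and IRF1 target genes 25 were tested, 20 were higher and 5 were not called, with a median of 3.11. The immunity-related GTPase gene Irgm1 was at 49.97 ± 10.6 CPM in the knockout and 2.62 ± 0.603 CPM in the wild type, and the chemokine gene Cxcl10 was at 26.4 ± 12.4 CPM in the knockout and 0.261 ± 0.0594 CPM in the wild type. Cxcl9, a chemokine gene that interferon gamma induces, had 4, 10 and 2 counts in the knockout and 6, 0 and 1 counts in the wild type and did not pass the filter. Ciita, the interferon gamma-induced activator of MHC class II genes, was not called (0.31 ± 0.49, edgeR adjusted p = 0.621).

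Of 25 STAT3 target genes 19 were higher and 2 lower, with a median log2 fold change of 1.68. The acute-phase gene Hp, which encodes haptoglobin, had 4384, 8467 and 7632 counts in the knockout, against 2, 2 and 0 in the wild type (log2 fold change 12.33 ± 0.61, edgeR adjusted p = 1.79e-07). Il4ra, the interleukin-4 receptor chain, was at 1821 ± 395 CPM in the knockout and 13.6 ± 0.944 CPM in the wild type. The cyclin gene Ccnd1 fell by 2.52, with 26.1 ± 3.36 CPM in the knockout and 150 ± 46.4 CPM in the wild type. The other lower gene was Birc5, which encodes survivin, a mitotic protein (-0.84 ± 0.26, edgeR adjusted p = 0.0177). It was not called without knockout replicate 3 (edgeR adjusted p = 0.0585) or without wild type replicate 2 (edgeR adjusted p = 0.0742), which left 1 lower gene in this list. Myc and Pim1 were not called (edgeR adjusted p = 0.237 and 0.786). Macrophage markers were higher for 14 of 14 genes in these libraries, and several other cell types given above also had most of their tested markers higher. The part of any of these cells in the rises of the 3 target lists was not tested.

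For Irf1, Irf8 and Irf7, the 3 genes with the largest changes, the most similar profiles were sought among 11227 protein-coding genes. The measure was the Euclidean distance over the 6 libraries of log2 CPM set against the wild type mean. Nearest to Irf1 were Gpr65 (0.37), Cdk15 (0.37) and Plekho1 (0.42). Nearest to Irf8 were Lair1 (0.32), Dok1 (0.37) and Man1c1 (0.37), and nearest to Irf7 were Mvp (0.24), Ltb4r1 (0.24) and Rinl (0.27). With 6 libraries in 2 groups, these distances mostly measure how alike the group differences are.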

How the data were processed

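The 6 libraries fall into Paxbp1 knockout and wild type by the genotype label. The authors deposited whole-number read counts per gene and FPKM for the same 54532 genes, and featureCounts 1.5.0-p3, HISAT2 2.0.5 and the build mm10 appear in the submitters' processing notes. No source used here gives the strand setting or the annotation release. The deposited FPKM values equal count over gene length over 1 constant per library, which was 0.891 to 1.17 times that library's count total. Counts were tested with edgeR 4.0.16 in R 4.3.3 (TMM factors, minimum count 10, minimum total 15, robust quasi-likelihood fit, genotype only). The test was first tried on simulated counts. SE is the log2 fold change, without sign, divided by the root of the F statistic. Floors and counting intervals cover counting error only. Alternatives used DESeq2 1.42.0, limma 3.58.1, other scalings and filters, FPKM, left-out libraries and a replicate block.

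Replicate numbers come from the titles. Same-numbered libraries deviated together (correlations 0.232, 0.339 and 0.176, against -0.323 to 0.073 for differently numbered ones). Deviations were taken from the mean of 3 libraries, so these correlations are tied to each other. Replicate 1 had counts for 24380 genes in the knockout and 24236 in the wild type, against 22059 to 22556 in the other libraries. The numbers were therefore also fitted as pairs, in the replicate block. The main test, on genotype only, did not use these pairs. No 2 replicates agreed within sampling noise (chi-square per degree of freedom 33.1 to 90.4).

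The members and lists were chosen with earlier results of these data known. Named were the members, the 2 genes of smallest adjusted p in each list's main direction and 1 in the other, the most abundant gene of each cell type list, near profiles and overlapping genes. Some genes that this rule names are not reported here. Any other gene named was chosen after its values were seen. Promoter sequences are from RefSeq.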

Additional observations from a re-analysis of the deposited data

How the results depend on the processing

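Under all 19 alternatives 8 of the 9 IRF and STAT genes were higher and Irf3 was not called, so the replicate block changed no call on them. The block is the fit with the replicate number as a term. It gave 5089 genes higher and 4792 lower over all genes, against 4721 and 4139 without it. Log2 fold changes ranged from 3.11 to 4.30 for Irf1, 1.53 to 2.06 for Irf2, 2.68 to 3.07 for Irf5, 2.90 to 3.51 for Irf7, 2.72 to 3.92 for Irf8, 1.18 to 1.60 for Irf9, 1.93 to 2.37 for Stat2, 0.95 to 1.24 for Stat3 and -0.31 to -0.04 for Irf3. The largest adjusted p among the 8 called genes was 0.0134, for Stat3. The median log2 fold change over all genes was -0.18 with library-size scaling and -0.22 with upper-quartile factors, against -0.03, so the members' rises are relative to that shift. The order of levels was the same in TPM for all 18 positions. TPM is the deposited FPKM rescaled within each library, with the same gene lengths. It could not change the order within a library, so it does not test the level order. For the other genes given by the naming rule, 977 recomputed fold changes stayed on their side of the threshold, 9 were no longer called and 1 became called. For 20 of the list genes named after their values were seen, 368 of 378 stayed. Of the rest 3 were no longer called (Birc5) and 7 became called (Jak1 and Ifnlr1). Jak1 was also called higher by DESeq2 (adjusted p = 0.0288) and with the stricter filter (edgeR adjusted p = 0.0483), and Ifnlr1 lower with upper-quartile factors (edgeR adjusted p = 0.0232). Among these and the members, the replicate block changed the calls of Jak1 and Ifnlr1. The 95% interval of the Irf3 fold was 0.681 to 1.25.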

Other observations

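Among the 9 genes, the most alike profiles over the 6 libraries, by the same distance on log2 CPM, were Irf9 and Stat3 (0.54), Irf1 and Irf8 (0.77), and Irf2 and Stat2 (0.82). Irf1 and Irf3 were farthest apart (7.28). Irf5 was nearer to Irf7 (0.97) than to Irf8 (1.46). These distances, too, mostly measure how alike the group differences are, and genes outside the 9 lay nearer. The nearest gene was Eif2ak3 (0.10) for Irf9 and Scarb1 (0.07) for Irf2. The gene IRF2-binding protein 1, Irf2bp1, was lower (log2 fold change -1.35 ± 0.24, edgeR adjusted p = 0.000707). The related genes Irf2bp2 (0.58 ± 0.21, edgeR adjusted p = 0.0358) and Irf2bpl (0.68 ± 0.26, edgeR adjusted p = 0.0491) were higher, so these genes did not move in one direction.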
